A study of Mus musculus with 4 samples.

Results

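The miR-322 and miR-503 cluster is a run of microRNA (miRNA) hairpins on the mouse X chromosome, and all of its mature arms on a mouse miRNA array were followed here across 4 cell lines. Members were chosen by name: every array entry for mmu-miR-322, miR-503, miR-351, miR-542, miR-450a or miR-450b, with any arm suffix. This gave 13 mature miRNAs of the 1023 mouse miRNAs on the array, read by 40 of its 2645 mouse probes, with miR-322-5p and miR-503-5p as the main members. The lines, with 1 array each, were OPCL61, glioma-initiating cells made from oligodendrocyte precursor cells, and OPC, the oligodendrocyte precursor cells. They further included NSCL61, glioma-initiating cells made from neural stem cells, and NSC, the neural stem cells. All 4 were mouse lines grown under one protocol. Genotype, strain, number of clones and how the glioma-initiating lines were made are not given in the sources used here. Total RNA (100 ng per array) was labelled with Cy3, and all 4 arrays shared 1 slide and 1 scan.

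A miRNA is cut from a hairpin in a longer transcript, and either arm of the hairpin (5p or 3p) can be loaded into the silencing complex. Bases 2 to 8 of the loaded strand, the seed, pair with target mRNAs, so miRNAs with one seed share many predicted targets. miR-322, whose human counterpart is named miR-424, and miR-503 belong to the extended miR-15 and miR-16 seed family, known for lowering cell-cycle genes such as the Cdc25a phosphatase. Both are induced when mouse myoblasts leave the cell cycle. The 5p arm of miR-351 carries the seed of miR-125, a family abundant in neural cells.

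The mature sequences of the 6 members above background on any array are shown so that the shared and the private seeds can be read. miR-351-5p, which was below background, is shown for its seed, with miR-16-5p and miR-125a-5p as examples of relatives from other loci. They are taken from RefSeq (GRCm38.p6), which held all 13 members, are written 5′ to 3′, and have the seed, bases 2 to 8, in capitals.
mmu-miR-322-5p: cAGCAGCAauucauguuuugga
mmu-miR-503-5p: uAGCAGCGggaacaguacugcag
mmu-miR-16-5p: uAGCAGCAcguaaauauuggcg
mmu-miR-351-5p: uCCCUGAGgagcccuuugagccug
mmu-miR-125a-5p: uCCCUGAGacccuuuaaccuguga
mmu-miR-351-3p: gGUCAAGAggcgccugggaac
mmu-miR-542-5p: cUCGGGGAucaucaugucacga
mmu-miR-542-3p: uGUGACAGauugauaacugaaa
mmu-miR-450a-5p: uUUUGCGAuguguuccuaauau
miR-322-5p and miR-503-5p were identical at 11 of 22 compared bases, including a run of 6 from base 2. AGCAGC at bases 2 to 7 was found in 7 of the 796 array miRNAs with a RefSeq sequence: miR-322-5p, miR-503-5p, miR-15a-5p, miR-15b-5p, miR-16-5p, miR-195-5p and miR-497-5p. The full seed of miR-503-5p was held by no other of the 796. The 7 hairpins lay on the minus strand at chrX:53047997-53054349, in the order Mir322, Mir503, Mir351, Mir542, Mir450-2, Mir450-1 and Mir450b. Mir503 began 295 bases and Mir351 began 996 bases downstream of the start of Mir322, while Mir542 began at 4862 bases and the Mir450 hairpins followed from 5982 bases. The mature miR-450a-5p is the same from Mir450-1 and Mir450-2, so the array cannot tell those hairpins apart.

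The array's probes are complementary to the 3′ part of a miRNA and vary in length, which decides how much of the seed they read. The 4 probes of the main members, 5′ to 3′, are shown with the bases that pair with the seed in capitals.
miR-322-5p, shorter probe: tccaaaacatgaatTGCTGCT
miR-322-5p, longer probe: tccaaaacatgaatTGCTGCTg
miR-503-5p, shorter probe: ctgcagtactgttcc
miR-503-5p, longer probe: ctgcagtactgttccC
The miR-322-5p probes read bases 2 to 22 and 1 to 22 of the miRNA. Those of miR-503-5p read bases 9 to 23 and 8 to 23, outside nearly the whole seed. Each of the 40 member probes matched its miRNA in full, and no other mature mouse miRNA in the RefSeq table held the stretch any of them reads. Partial pairing with family members was not tested.

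A spot was well above background by the scanner software's flag, and a probe was if at least 50% of its spots were. Of the 13 members, 6 were above background on at least 1 array, against 26.5% of all mouse miRNAs (271 of 1023). miR-322-5p and miR-503-5p were above background on all 4 arrays. The other 4 were detected only in glioma-initiating lines on these arrays: miR-351-3p in OPCL61 and NSCL61, miR-542-5p in OPCL61, and miR-542-3p and miR-450a-5p in NSCL61. Per line, 4 members were above background in OPCL61, 2 in OPC, 5 in NSCL61 and 2 in NSC. Detection in general moved the same way, with 206 miRNAs above background in OPCL61, 139 in OPC, 228 in NSCL61 and 170 in NSC, and its part in the members' counts was not tested. The map of hairpins and detected arms shows detected arms from Mir322, Mir503, Mir351, Mir542 and Mir450-1 or Mir450-2, and none from Mir450b.

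**Figure D1:**
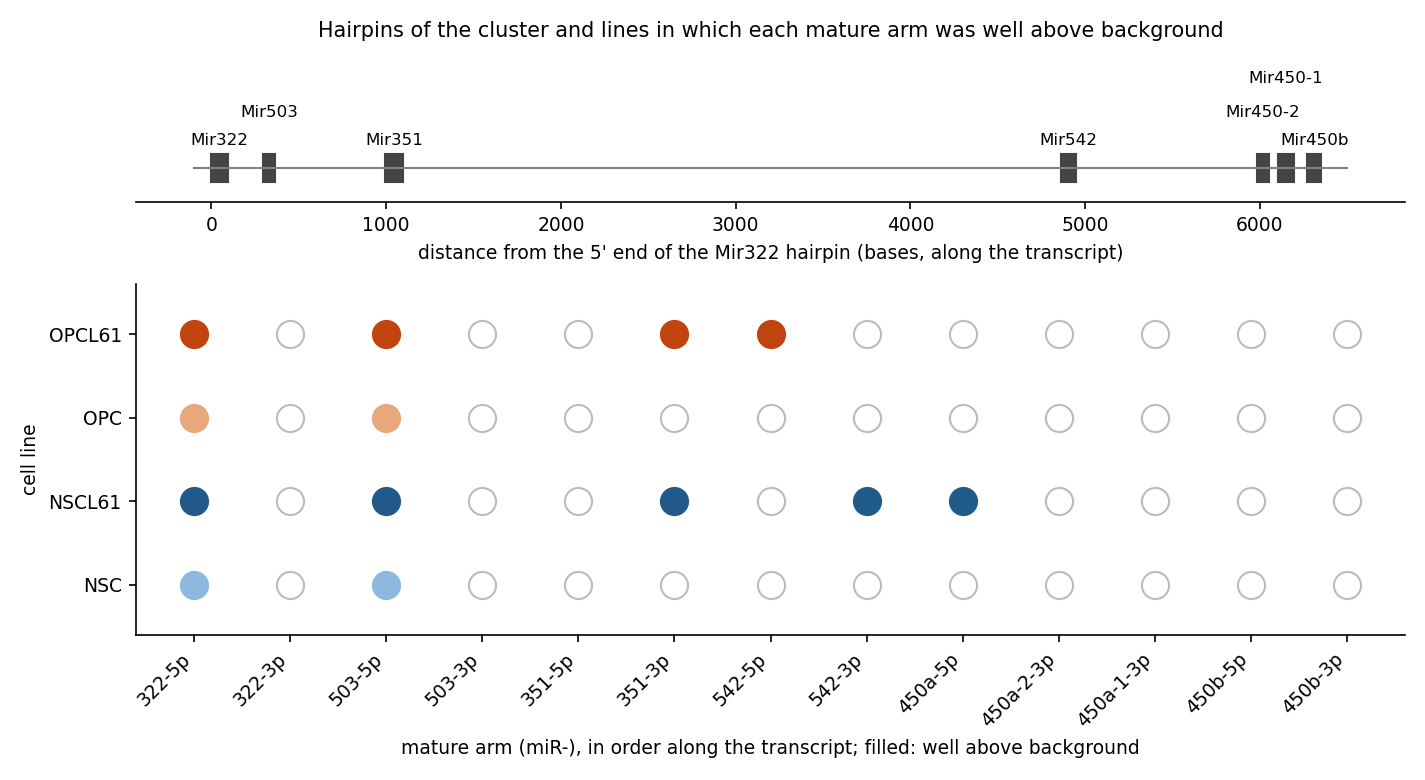
Upper panel: the 7 hairpins by distance in bases from the 5′ end of the Mir322 hairpin along the transcript. Lower panel: each mature arm in each line, filled where it was well above background; miR-322-5p and miR-503-5p are filled in all 4 lines, and the 4 other detected arms only in OPCL61 or NSCL61.

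The remaining 7 members, miR-322-3p, miR-503-3p, miR-351-5p, miR-450a-1-3p, miR-450a-2-3p, miR-450b-5p and miR-450b-3p, were above background on no array. The highest mean signal of any of their 26 probes was 11.4 units in OPCL61, 8.82 in OPC, 15.9 in NSCL61 and 4.0 in NSC. The lowest spots well above background on the arrays stood at 18.2 units in OPCL61, 16.3 in OPC, 17.3 in NSCL61 and 17 in NSC. The 15.9 units belonged to miR-351-5p, whose best probe had 44.4% of its spots above background in NSCL61. With outlier spots kept, miR-351-5p was above background in NSCL61, and no bound above 1-fold against NSC could be set.

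miR-322-5p was the member with signal far above background everywhere. Its brightest probe had a mean of 113 ± 7.22 units in OPCL61, 194.7 ± 9.21 in OPC, 735 ± 30.1 in NSCL61 and 118 ± 6.55 in NSC, before any scaling between arrays (SD over 17, 18, 20 and 18 spots). Its spots ranged over 99.3 to 128 units in OPCL61, 181 to 213 in OPC, 687 to 792 in NSCL61 and 107 to 132 in NSC. NSCL61 was the highest and its spots overlapped those of no other line, while the spots of OPCL61 and NSC overlapped.

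miR-503-5p, the cluster's second member of the seed family, was dimmer. Its brightest probe had 27.0 ± 3.71 units in OPCL61, 48.3 ± 3.74 in OPC, 62.9 ± 2.58 in NSCL61 and 20.3 ± 4.02 in NSC (SD over 16, 20, 19 and 20 spots). NSCL61 was again the highest and OPC the second, and the spots of OPCL61 (20.9 to 33.4) and NSC (12.1 to 25.6) overlapped. In NSC 85% of its spots were above background, and in the other 3 lines 100%. Its shorter probe was above background only in NSCL61, with 52.6% of its spots.

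miR-351-3p, the arm opposite the miR-125-like strand, had 26.4 ± 2.60 units in OPCL61, 0.921 ± 2.89 in OPC, 48.2 ± 5.41 in NSCL61 and 2.36 ± 2.20 in NSC. On this brighter probe, every spot of both glioma-initiating lines lay above every spot of both precursor lines. Its other probe was below background on all 4 arrays, with 10.3 units in OPCL61 and 15.7 in NSCL61, where 36.8% of its spots were above background. That dimmer probe is the longer one, reading bases 9 to 21 of miR-351-3p, against 10 to 21 for the brighter. For both main members the longer probe was the brighter. Detection of miR-351-3p thus rests on its shorter probe, and the cause of the difference was not tested. miR-542-5p had 22.9 ± 1.64 units in OPCL61, 5.08 ± 2.97 in OPC, 16 ± 4.25 in NSCL61 and 6.21 ± 2.05 in NSC (10 spots each). Its NSCL61 spots reached from 8.64 to 24.2 units and fell on both sides of the background limit. Human miR-542-3p is known for lowering survivin, an inhibitor of apoptosis. Mouse miR-542-3p had 4.71 ± 3.77 units in OPCL61, 5.73 ± 3.39 in OPC, 25.2 ± 3.33 in NSCL61 and 3.99 ± 2.49 in NSC. miR-450a-5p had 9.34 ± 3.39 units in OPCL61, 8.38 ± 3.42 in OPC, 37.0 ± 2.43 in NSCL61 and 7.76 ± 3.23 in NSC. For both, all NSCL61 spots lay above all spots of the other 3 lines. These spot spreads measure error within an array only.

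**Figure D2:**
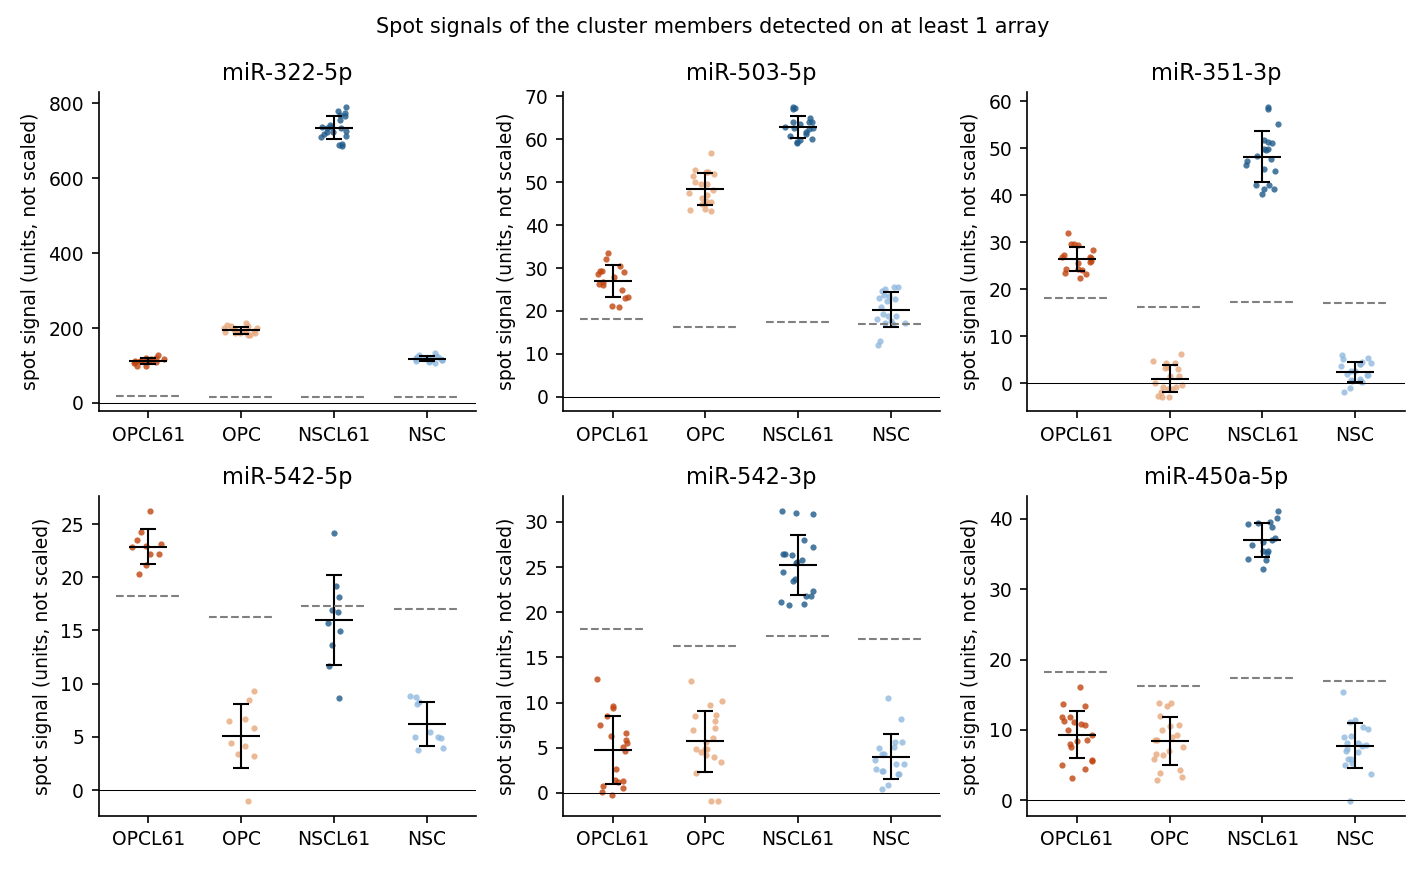
Signal of each spot (units as deposited, not scaled between arrays) of the brightest probe of the 6 detected members in OPCL61, OPC, NSCL61 and NSC. Black marks are the mean and SD over spots, and the grey dashed line is the lowest spot well above background on that array; NSCL61 is highest in every panel except that of miR-542-5p.

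Arrays differed in overall brightness, so levels were compared after scaling each array by its 75th percentile over the 182 probes above background on all 4. The amounts subtracted from the log2 values were 0.38 in OPCL61, -1.30 in OPC, 1.44 in NSCL61 and -0.52 in NSC. On this scale miR-322-5p had log2 levels of 6.43 in OPCL61, 8.90 in OPC, 8.08 in NSCL61 and 7.40 in NSC. miR-503-5p had scaled log2 levels of 4.37 in OPCL61, 6.89 in OPC, 4.54 in NSCL61 and 4.88 in NSC. OPC was highest and OPCL61 lowest for both. Neighbours in the order were 0.68 to 0.97 apart for miR-322-5p. For miR-503-5p OPC stood 2.02 above NSC, NSC stood 0.34 above NSCL61 and NSCL61 stood 0.17 above OPCL61. All of these steps exceeded 2 spot standard errors, but with 1 array per line the spread between cultures is unknown and no test between single lines was possible. The order depends on the scaling: without it, NSCL61 was highest for both members.

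Changes between lines were counted where a miRNA was above background in at least 1 of them. A change counted as at least 2-fold only if it also exceeded 2 spot standard errors. Where 1 line was below background, only a bound was computed. Without scaling the median change of all miRNAs above background in both lines was 1.35 in OPCL61 against OPC and 0.93 in NSCL61 against NSC, and after scaling it was -0.33 and -1.03. The split of all miRNAs into higher and lower moved with it, from 31 and 44 after scaling to 119 and 4 without it in OPCL61 against OPC. In NSCL61 against NSC it was 29 and 95 after scaling and 120 and 17 without it. In OPC against NSC it was 28 and 23, and 12 and 64 without scaling. In OPCL61 against NSCL61 it was 89 and 31, and 40 and 101 without scaling. Changes of members above background in both lines are therefore also given relative to the median change, and by rank, which a shift of a whole array leaves as they are.

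Both main members were lower in OPCL61 than in OPC. Of the 4 members tested, 2 were lower by at least 2-fold, against 20.6% of all 214 miRNAs tested, and none was higher, against 14.5%. miR-322-5p was 5.54-fold lower (log2 change -2.47, spot standard error 0.03), and miR-503-5p was 5.76-fold lower (-2.53, 0.06). Among the 131 miRNAs above background in both lines, miR-503-5p had the second lowest change and miR-322-5p was just above it at rank 3. Relative to the median miRNA, miR-503-5p was 4.59-fold lower and miR-322-5p 4.41-fold lower. The 2 probes of miR-322-5p gave -2.47 and -2.65. Without scaling the changes of miR-322-5p and miR-503-5p were -0.79 and -0.85, neither of them 2-fold, against 55.6% of all miRNAs past 2-fold upward and 1.87% downward. Under a 75th percentile over all probes they were -0.95 and -1.01. miR-351-3p and miR-542-5p were above background only in OPCL61, and the bound on each fold was under 1, so no fold is given.

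In NSCL61 against NSC no member of the 5 tested reached 2-fold, against 11.8% of all 245 miRNAs higher and 38.8% lower. miR-322-5p was 1.60-fold higher (log2 change 0.68, spot standard error 0.02), at rank 24 from the highest of 153, and 1.71 above the median log2 change. The change of miR-503-5p was -0.34 (0.05), at rank 52 from the highest and 0.69 above the median. For miR-322-5p the change was positive under all 5 scalings tried, from 0.68 to 2.64, and at least 2-fold under 3 of them. That of miR-503-5p was negative under the 75th percentile of shared probes and between 0.30 and 1.61 under the other 4 scalings. Without scaling 4 members were higher by at least 2-fold: miR-322-5p, miR-503-5p, miR-351-3p (at least 2.68-fold) and miR-450a-5p (at least 2.07-fold). In that setting 49% of all 245 miRNAs were higher by at least 2-fold and 6.94% lower. With normexp (-1.05) and with the mean over both its probes (-1.09), miR-503-5p was instead lower by at least 2-fold. The shorter probe was below background in NSC (3.19 units, against 17.2 in NSCL61), so its level there stood at the background limit. Its own log2 change was -1.85 after scaling and 0.11 without it.

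Both main members were higher in OPC than in NSC, the precursor lines. Of the 2 members tested in OPC against NSC, 2 were higher by at least 2-fold in OPC, against 14% of all 200 miRNAs, and none was lower, against 11.5%. miR-503-5p was 4.05-fold higher (log2 change 2.02, spot standard error 0.06) and miR-322-5p 2.84-fold higher (1.5, 0.02). They had the fourth and the fifth highest changes of the 109 miRNAs above background in both. Relative to the median miRNA, miR-503-5p was 4.19-fold higher and miR-322-5p 2.94-fold higher. Without scaling miR-322-5p was 0.72 higher on the log2 scale, under 2-fold, and miR-503-5p 1.23 higher, against 6% of all miRNAs past 2-fold upward and 32% downward.

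Between the glioma-initiating lines miR-322-5p was lower in OPCL61. Of 6 tested in OPCL61 against NSCL61, 1 was higher by at least 2-fold, against 34.8% of all 256 miRNAs, and 1 was lower, against 12.1%. miR-322-5p was 3.13-fold lower in OPCL61 (log2 change -1.65, spot standard error 0.03), at rank 12 from the lowest of 178 and 4.08-fold lower relative to the median miRNA. The change of miR-503-5p was -0.17 (0.05), at rank 62 and -0.55 relative to the median. That of miR-351-3p was 0.20 (0.05), at rank 83 and -0.18 relative to the median, and it was -0.86 without scaling. miR-542-5p was at least 2.62-fold higher in OPCL61. Of the 5 scalings, that bound reached 2-fold only under the 75th percentile of shared probes. It rests on the brightest probe of miR-542-5p, the only one of its probes above background on any array. The others had 5.04, 3.06 and -1.40 units in OPCL61 and 12.7, 5.46 and -2.08 units in NSCL61, all below background. Without scaling no member was higher by at least 2-fold and 3 were lower, miR-322-5p, miR-450a-5p and miR-503-5p, against 15.6% of all 256 miRNAs higher and 39.5% lower. The plot of ranked changes shows these positions among all miRNAs, and the plot by scaling shows the changes of both main members.

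**Figure D3:**
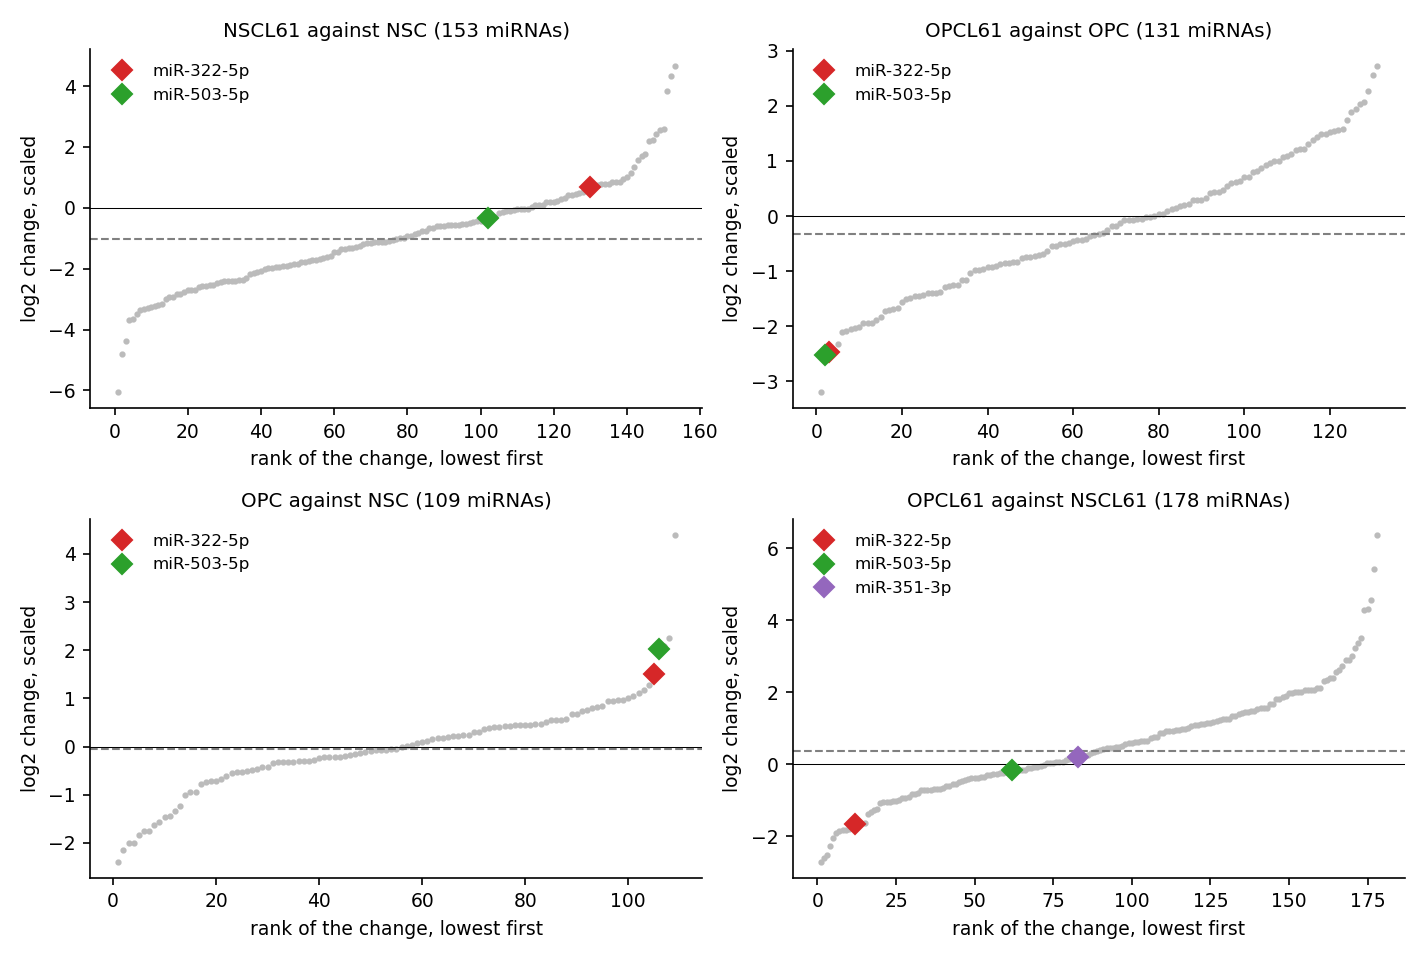
Log2 changes after scaling, ranked from lowest to highest, of all miRNAs above background in both lines of each comparison (grey), with the median as a dashed line. miR-322-5p (red) and miR-503-5p (green) are near the low end in OPCL61 against OPC and near the high end in OPC against NSC; miR-351-3p (purple) is above background in both lines only in OPCL61 against NSCL61.

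**Figure D4:**
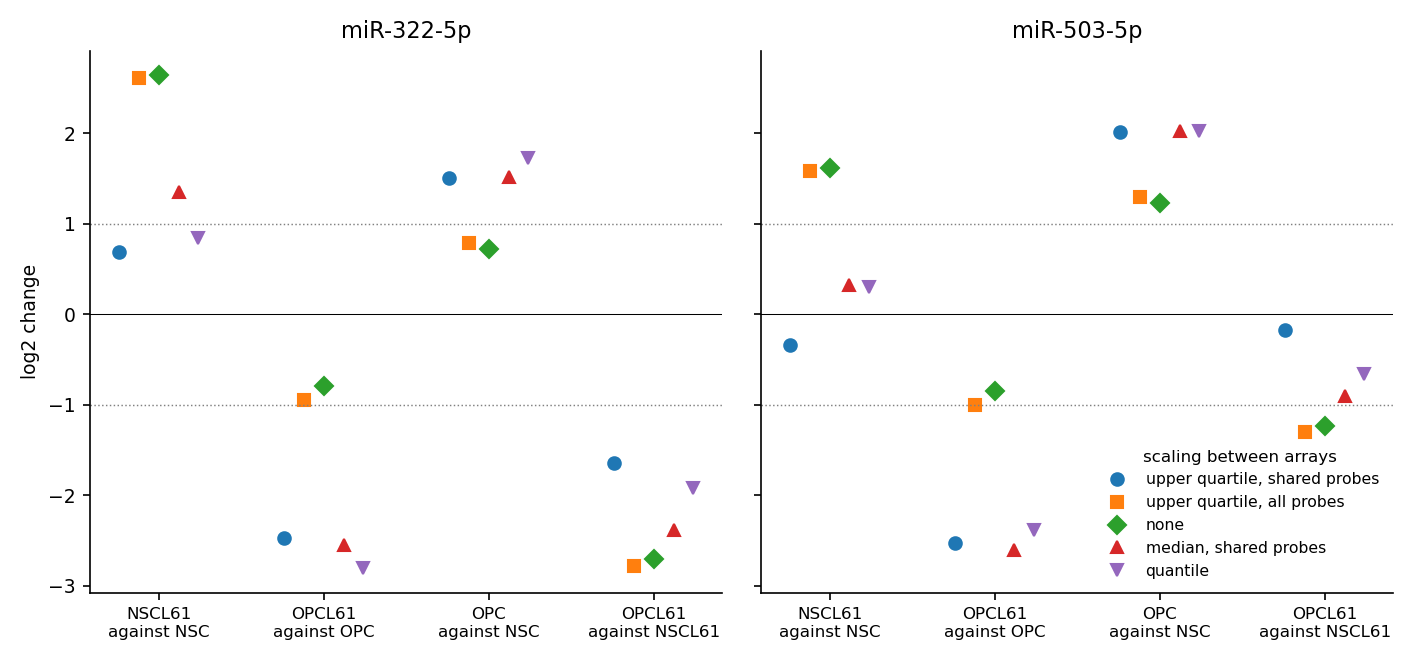
Log2 change of miR-322-5p (left) and miR-503-5p (right) in each comparison under 5 scalings between arrays; dotted lines mark 2-fold. The change in OPCL61 against OPC is negative under all 5 for both members, and that of miR-503-5p in NSCL61 against NSC changes sign.

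Relative to its precursor line, OPCL61 was lower in miR-322-5p and NSCL61 was not. The change in OPCL61 against OPC minus that in NSCL61 against NSC was -3.15 for miR-322-5p on the log2 scale (spot standard error 0.04), the lowest of the 105 miRNAs above background on all 4 arrays. For miR-503-5p it was -2.19 (0.08), at rank 3 from the lowest. The median of the 105 was 0.03. In the other direction some differences were larger in size than those of both members, up to 5.28 for miR-2137 and 4.72 for miR-714. The size of the members' difference between the lineages moved with the scaling. Across the 5 scalings it was -3.15 to -3.89 for miR-322-5p and -2.19 to -2.92 for miR-503-5p. The median of the 105 moved as well, to -0.71 under median scaling. Of the 5, quantile normalization is the one that does not shift whole arrays and so could reorder the miRNAs. Under it miR-322-5p was at rank 1 from the lowest and miR-503-5p at rank 2, and relative to the median they were at -3.23 and -2.26, against -3.18 and -2.21 under the other 4 scalings. With a normexp background correction the difference was -2.29 for miR-322-5p, the second lowest, and -0.54 for miR-503-5p, at rank 23. Averaging both probes of miR-503-5p, of which the shorter was above background only in NSCL61, gave -0.94, at rank 17. Each of these values rests on 4 single arrays, so it has no replicate error.

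**Figure D5:**
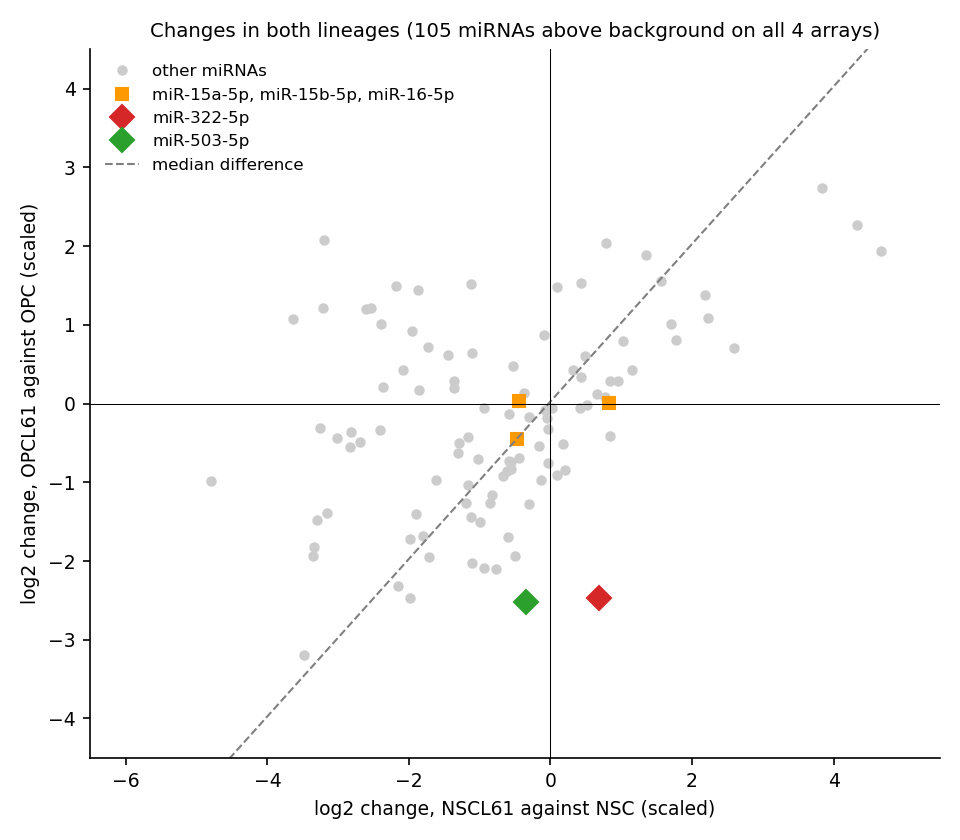
Log2 change in OPCL61 against OPC (vertical) and in NSCL61 against NSC (horizontal) of the 105 miRNAs above background on all 4 arrays, after scaling; the dashed line has a slope of 1 and marks the median difference between the lineages. miR-322-5p (red) lies farthest below the line, and miR-503-5p (green) is also far below it. Some other miRNAs (grey) lie farther above it, with differences up to 5.28 (miR-2137). Of the same-seed miRNAs (orange), miR-15a-5p (0.48) and miR-16-5p (0.03) differed between the lineages by less than miR-15b-5p (-0.83).

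When the 2 glioma-initiating lines were set against the 2 precursor lines in one limma fit with lineage as a term, no member passed an adjusted p of 0.05. limma gave miR-322-5p a log2 change of -0.89 (SE 0.89, adjusted p = 0.581), with 1 lineage in each direction. It gave miR-503-5p -1.43 (SE 0.86, adjusted p = 0.379) and miR-351-3p -0.72 (SE 0.49, adjusted p = 0.426). Of the 206 miRNAs in the fit 1 was called, lower (0.485%), while 50 had an unadjusted p under 0.05. With normexp (offset 50), limma gave miR-503-5p an adjusted p of 0.0253 and miR-351-3p one of 0.0193. There 77 miRNAs were called, of which 74 were lower. The offset lay within the range of the unscaled signals of miR-503-5p, 20.3 units in NSC to 62.9 in NSCL61. The part of the offset in its adjusted p was not tested. miR-351-3p was below background in OPC and NSC, so in the main fit and with normexp its precursor levels stood at the background limit before scaling. Its negative changes in these fits are opposite in sign to its unscaled signals. Those were 26.4 units in OPCL61 and 48.2 in NSCL61, against 0.921 in OPC and 2.36 in NSC. The adjusted p of miR-351-3p with normexp is therefore no evidence of a lower level. Scaling sets the sign of miR-351-3p. Its limma change was -1.07 with normexp and -0.43 with median scaling. It was instead 0.54 with quantile normalization, 0.999 with all probes in the percentile and 1.09 without scaling.

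The seed of miR-322-5p is also made from other loci, as the miR-15 family of cell-cycle regulators. The array held 6 miRNAs of this list besides miR-322-5p, and 5 were above background in at least 1 line (miR-1907 in none). None was lower by 2-fold in OPCL61 against OPC (20.6% of all miRNAs tested), and 1 of the 5 was higher (14.5% of all), miR-195-5p by 2.48-fold. There the log2 changes of miR-15a-5p, miR-15b-5p and miR-16-5p were 0.03, 0.00 and -0.45, and the median of the 5 was 0.03, against -0.33 over all miRNAs. In NSCL61 against NSC 2 of the 5 were higher (11.8% of all), miR-195-5p by at least 3.1-fold and miR-497-5p by at least 4.19-fold, both from one locus on chromosome 11. The unscaled signals of miR-16-5p were 573 units in OPCL61, 245 in OPC, 848 in NSCL61 and 305 in NSC, so both glioma-initiating lines were above both precursor lines there. Without scaling all 5 were higher by at least 2-fold in OPCL61 against OPC, as were 55.6% of all 214 miRNAs. The miRNAs with the seed of miR-351-5p, miR-125a-5p and miR-125b-5p, were above background in every line. miR-125a-5p was higher by 1.56 on the log2 scale both in OPCL61 against OPC and in NSCL61 against NSC, and miR-125b-5p by 0.60 and 0.48.

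A further miRNA cluster on the X chromosome, miR-106a to miR-363, is a relative of the growth-promoting miR-17 to miR-92 cluster and lies 305430 bases from Mir450b. The array had 13 entries with the names of its members, of which 2, miR-19b-1-5p and miR-92a-1-5p, are arms of copies in another cluster. Above background were 3, and of these miR-19b-3p and miR-92a-3p are also made elsewhere. The other entries, among them miR-106a-3p, miR-20b-3p and both arms of miR-18b and miR-363, were below background on every array. In OPCL61 against OPC 2 of the 3 were lower by at least 2-fold (20.6% of all miRNAs tested), miR-20b-5p with a log2 change of -2.09 and miR-92a-3p with -1.95, and the change of miR-19b-3p was 0.12. Without scaling the changes of miR-20b-5p and miR-92a-3p were -0.41 and -0.27, neither was called, and 1 of the 3 was higher. In NSCL61 against NSC the changes were -0.94 for miR-20b-5p, -1.71 for miR-92a-3p, called lower, and 0.65 for miR-19b-3p. There the signs of miR-20b-5p (1.02) and miR-92a-3p (0.25) turned without scaling. The scaled changes of miR-20a-5p, -2.10 in OPCL61 against OPC and -0.77 in NSCL61 against NSC, were near those of miR-20b-5p. Whether the probes of miR-20b-5p also read miR-20a-5p was not tested.

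Likeness of pattern was measured as the root mean square distance between centred scaled log2 levels over the 4 lines. The nearest of 104 miRNAs to miR-322-5p were miR-20a-5p (0.54), miR-26a-5p (0.56), miR-20b-5p (0.59), miR-30b-5p (0.61) and miR-503-5p (0.62), against a median distance of 1.08. The nearest to miR-503-5p were miR-30d-5p (0.56), let-7c-5p (0.57), miR-25-3p (0.57), miR-26a-5p (0.58) and miR-20b-5p (0.59), with miR-322-5p at rank 8. All of these had their highest scaled level in OPC and one below their own mean in OPCL61. With 4 points per miRNA, the distances are descriptions only.

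The labelled cell types were checked against known miRNA markers. Of 3 neural markers (miR-124-3p and both arms of miR-9) 0 were above background in OPCL61, 2 in OPC, 2 in NSCL61 and 3 in NSC. NSC was the only line with miR-124-3p above background (32.5 units). Of 3 oligodendrocyte-lineage markers (miR-219-5p, miR-338-3p and miR-138-5p) 0 were above background in OPCL61, 1 in OPC, 2 in NSCL61 and 3 in NSC. miR-219-5p was below background in OPC. These counts do not decide whether the OPC label holds, since how the markers vary with the stage of the cells was not tested. In NSCL61, where miR-322-5p, miR-542-3p and miR-450a-5p were brightest, 3 of 5 fibroblast, pericyte and smooth muscle markers were above background, with a summed signal of 635 units, against 36.8 in OPCL61, 12.4 in OPC and 0.928 in NSC. These were miR-199a-3p (413 units), miR-199a-5p and miR-214-3p, while miR-143-3p and miR-145-5p of the same list were near 0 (3.96 and -0.31 units). Epithelial miR-205-5p (299 units) and endothelial miR-126-3p (25.9 units) were also above background in NSCL61, and the markers of blood cells and microglia, muscle and hepatocytes were above background on no array. The part of these markers in the members' levels was not tested, and fewer cells of a type and less RNA per cell cannot be told apart in bulk RNA.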

How the data were processed

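Per the labels' protocols, total RNA of 4 mouse lines was hybridised to 1-colour Agilent miRNA arrays, and per the submitters' processing notes Agilent Feature Extraction (version 10.7.3.1) read the images. The deposited signal intensity of a spot had, per the file headers, been background-subtracted and spatially detrended, with no normalization between arrays. The flags, read as 0 or 1, are other values deposited per the file headers. The deposited table of values held the same intensities (largest difference 0).

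Outlier spots were left out (1842 to 2365 per array), and 0 mouse spots were saturated. Signals were raised to the lowest spot well above background, put on the log2 scale, averaged over spots and scaled by the 75th percentile over 182 shared probes. A miRNA took the level of its brightest probe. The SD over the spots of a probe had a median of 0.09 to 0.13 (log2) per array and is technical, and the number of arrays limits the precision. Where 1 line was below background, the bright level was set against the higher of the lowest detected level and the dim probe's own level. "At least" marks such bounds, and none is given under 1-fold. Glioma-initiating and precursor lines were compared in a limma fit (version 3.58.1, R 4.3.3) that had a lineage term, a trended variance and Benjamini-Hochberg adjustment, on miRNAs above background on at least 2 arrays. This measures the spread between 2 lineages, not between cultures. Other steps used Python 3.11.15, and the calculations were tested on simulated data. Named are all members, the miRNAs of the same-seed and neighbouring lists above background, and the 5 nearest patterns of each main member. The members, lists, tests and alternatives were chosen with earlier results of these data known. Alternatives covered scaling, background correction, probe and spot summaries, the floor and the detection rule.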

Additional observations from a re-analysis of the deposited data

Results flagged for a closer look

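miR-322-5p had opposite signs in the 2 lineages: a log2 change of -2.47 in OPCL61 against OPC and of 0.68 in NSCL61 against NSC, a difference of -3.15. With 1 array per line the difference was not tested. The signs of miR-322-5p stayed opposite under all 5 scalings. Opposite signs were not particular to it. After scaling miR-210-3p changed by -0.41 in OPCL61 against OPC and by 0.85 in NSCL61 against NSC. For miR-2137 these changes were 2.07 and -3.20.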

How the results depend on the processing

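Counts of members past 2-fold changed with the scaling. In NSCL61 against NSC the count was 0, but 4 without scaling or with all probes in the percentile. It was 1, miR-322-5p higher, with median scaling, every spot required above background, a 1.5-fold threshold, or centring on the median miRNA (the last chosen after seeing the data). It was 1, miR-503-5p lower, with normexp and the mean over detected probes. In OPCL61 against OPC the count was 2, but 1 with all probes in the percentile and 0 without scaling. In OPC against NSC it was 2, but 1 with all probes, without scaling and with normexp. In OPCL61 against NSCL61 it was 2 (1 higher, 1 lower), but 1, lower, with median scaling, quantile normalization and normexp. It was 3, all lower, with all probes and without scaling, and 2, both lower, with the software's total signal. The lineage difference of miR-322-5p kept its sign under each alternative run, at -3.56 with all probes, -3.43 without scaling, -3.89 with median scaling, -3.65 with quantile normalization, -2.29 with normexp, -3.38 with the software's total signal and -3.53 with every spot above background. That of miR-503-5p was -2.59 with all probes, -2.92 with median scaling, -2.68 with quantile normalization, -0.54 with normexp, -3.03 with the total signal and -0.94 with the mean over detected probes. With every spot required above background miR-503-5p was not measured in NSC. In the limma fit miR-322-5p turned to 0.83 with all probes (adjusted p = 0.557) and 0.92 without scaling (adjusted p = 0.447), and miR-503-5p to 0.29 (adjusted p = 0.892) and 0.38 (adjusted p = 0.808). The limma change of miR-351-3p also turned positive with all probes, without scaling and with quantile normalization. With normexp limma gave miR-503-5p -1.32 (adjusted p = 0.0253). The cause of these changes was not tested.

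Scaling on the 6 dmr control probes was not run because none was above background on any array, and the limma fit without a detection filter could not be fitted. The limma fit pairs each glioma-initiating line with its precursor line through the lineage term, and without that term the adjusted p was 0.542 for miR-322-5p and 0.379 for miR-503-5p. Leaving out an array leaves the limma fit no residual degrees of freedom. Signals of miR-503-5p, miR-351-3p and the miR-542 and miR-450a arms lay within a few multiples of the background limit, which limits their folds.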
